A study of Mus musculus with 8 samples.

Results

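The genes described here code for 9 surface proteins by which T cells enter, leave or stay in a tissue: the chemokine receptors Ccr7, Cxcr4, Cxcr3, Ccr4 and Ccr8, the lipid receptor S1pr1, the activation antigen Cd69 and the integrin chains Itga4 and Itgae. Each was the row of the deposited table whose gene symbol equals that name, which gave 9 of 27179 genes. Levels are given in RPKM (reads of a gene divided by its length in kilobases and by library depth), a scale on which levels of different genes can be compared per length. Of the 9 genes, 8 had a mean of at least 0.5 RPKM over the 8 libraries and were tested among 12605 genes. Itgae had a mean of 0.402 RPKM and was not tested.

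RNA sequencing covered 8 libraries of splenic CD4+ T cells from 8-week-old C.Cg-Foxp3tm2Tch/J mice, a strain that carries a fluorescent reporter in the Foxp3 gene. The parents drank water with 10 ppm CdCl2 or unspiked water before and during mating and, for the mothers, through pregnancy. Plain water was given within 12 hours of birth. The offspring were therefore exposed before birth (Cd) or not (Ctr). Their CD4+ T cells were isolated by negative selection and FACS, and were either lysed at once (Unstim) or kept for 16 hours with anti-CD3/CD28 beads (Stim), so that stimulation and time in culture cannot be told apart. This gave Ctr_Unstim, Ctr_Stim, Cd_Unstim and Cd_Stim with 2 libraries each, numbered 6 and 7. Neither the sex of the mice nor the meaning of the numbers is given with the libraries, and p-values measure only the spread between these libraries, which may be technical.

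The reads recovered for 17794 genes summed to 15531549 to 25469401 a library, and replicate libraries correlated across 12605 genes with a Pearson r of 0.983 to 0.990, genes not being independent. The T cell marker Cd3e had group means of 312 to 463 RPKM. After stimulation 8 of 8 T cell markers in control and 7 of 8 in Cd offspring had estimates below 0, with medians of -0.70 and -0.64 on the log2 scale. Of these, 2 in control and 1 in Cd offspring were called lower. Here and below, list genes counted as risen or fallen after stimulation are those called by the 2-fold and adjusted p rule given below. Of 9 myeloid and dendritic cell markers, 9 were below 1 RPKM in every library, and the B cell marker Ms4a1 was listed at 0 in all libraries. Summed levels were 3.12 to 4.89 RPKM for 4 B cell markers, nearly all of it Cd79a. For 2 CD8 T cell markers they were 9.52 to 11.8, nearly all of it Cd8b1, while Cd8a had group means of 0.0855 to 0.139. For 6 erythroid and platelet markers they were 0.365 to 1.72. Those of 4 NK cell markers were 18.8 to 22.7 RPKM in unstimulated and 6.52 to 7.60 in stimulated libraries, and 2 of the 3 tested, Klrb1c and Klrd1, fell in both exposures. The labels name CD4+ T cells. A legend of the study calls the sequenced cells of control offspring CD25- conventional T cells, while its methods give a FACS step without naming the gate. Regulatory T cells also use Ccr4, Ccr8 and Itgae. Their defining factor Foxp3 had group means of 4.60 to 7.44 RPKM, and the summed level of 4 regulatory T cell markers was 14.9 to 19.2 RPKM in unstimulated and 140 to 173 RPKM in stimulated libraries. Most of that sum after stimulation was Il2ra, which conventional T cells also induce. The part of regulatory T cells in the levels of Ccr4, Ccr8 and Itgae was not tested. Nor was that of NK cells in the level of Cxcr3 or any other gene. In bulk RNA fewer cells of a type and less RNA per cell cannot be told apart. Of 8 activation controls, 7 were higher after stimulation in control offspring and 8 in Cd offspring. Il2, one of these controls, was at 0.703 and 0.517 RPKM in Ctr_Unstim and at 0.271 and 0.308 in Cd_Unstim. It was the only gene of the lists used here that was called between Cd and control offspring (adjusted p = 0.0409, limma). Il2 passed the filter on low values through its stimulated group means of 51.6 and 45.5 RPKM. The test shares its spread with those libraries, so the call rests on values near the floor and may be too sure.

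T cell traffic rests on receptors that read chemical gradients and on integrins that hold the cell to a vessel wall or an epithelium. CCR7 brings naive T cells into lymph nodes and the white pulp of the spleen, S1PR1 leads them out towards the lipid sphingosine 1-phosphate in blood and lymph, and CD69 binds S1PR1, removes it from the surface and so retains cells that have met antigen. CXCR4 follows CXCL12, CXCR3 guides cells to inflamed tissue, and CCR4 and CCR8 are used by type 2 helper, skin-homing and regulatory T cells. The integrin alpha 4 chain pairs with beta 1 or beta 7, and the alpha E chain pairs with beta 7 and binds E-cadherin on epithelial cells.

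The RefSeq promoter table of GRCm38.p6 held 5 of the 9 genes: Cxcr4, Cxcr3, Ccr4, Ccr8 and Itga4. Shown are the 250 bases before the start of the 4 chemokine receptor genes, of which 2 were lower and 2 were higher after stimulation. They are given 5' to 3' on the strand of the gene, with matches to the motifs searched in capitals.
Cxcr4, chr1:128592300-128592549, minus strand: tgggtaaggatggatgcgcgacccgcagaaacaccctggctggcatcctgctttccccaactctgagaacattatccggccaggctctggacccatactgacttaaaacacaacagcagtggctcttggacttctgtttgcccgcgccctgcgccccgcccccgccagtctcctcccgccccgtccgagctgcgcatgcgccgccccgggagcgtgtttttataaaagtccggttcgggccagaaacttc
Cxcr3, chrX:101734148-101734397, minus strand: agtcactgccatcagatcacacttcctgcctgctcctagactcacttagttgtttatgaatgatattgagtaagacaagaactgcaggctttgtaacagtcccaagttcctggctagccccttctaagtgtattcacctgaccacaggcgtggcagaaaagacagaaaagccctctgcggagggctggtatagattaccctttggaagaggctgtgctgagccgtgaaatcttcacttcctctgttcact
Ccr4, chr9:114496545-114496794, minus strand: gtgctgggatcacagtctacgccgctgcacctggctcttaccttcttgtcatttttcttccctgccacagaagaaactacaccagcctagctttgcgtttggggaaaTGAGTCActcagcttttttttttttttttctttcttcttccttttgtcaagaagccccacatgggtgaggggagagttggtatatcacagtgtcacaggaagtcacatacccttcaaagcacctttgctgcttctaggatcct
Ccr8, chr9:120091883-120092132, plus strand: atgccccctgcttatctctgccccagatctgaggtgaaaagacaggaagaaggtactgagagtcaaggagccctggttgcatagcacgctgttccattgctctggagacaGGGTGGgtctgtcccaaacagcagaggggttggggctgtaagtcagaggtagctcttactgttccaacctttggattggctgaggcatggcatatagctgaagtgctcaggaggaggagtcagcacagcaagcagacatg
The motifs searched on both strands were CCACCC for KLF factors, TGTTTAC for FOXO factors, TGANTCA for AP-1, TGGAAA for NFAT and CCGGAA for ETS factors. These letters occurred in 28.1%, 3.17%, 6.75%, 18.6% and 12.0% of 32851 promoter windows of the same length, in that order. The Ccr4 window held 1 AP-1 match at position -143 from the start, and the Ccr8 window held 1 KLF match on the other strand at position -140. Itga4 held 1 KLF match at position -45, in the window chr2:79255176-79255425 on the plus strand. The windows of Cxcr4 and Cxcr3, both lower after stimulation, held none of these letters. The start used for Ccr4 lies inside the span annotated for the gene, and a match is a description of letters only.

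**Figure D1:**
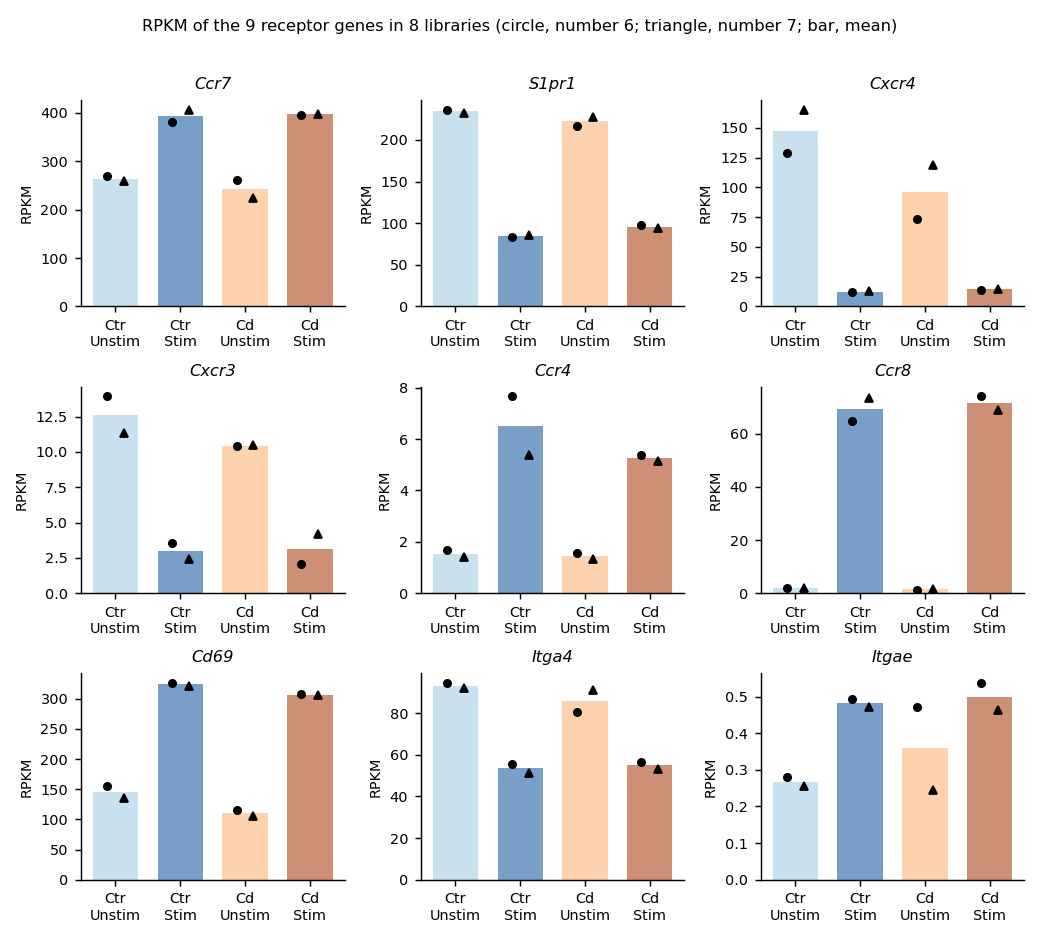
RPKM (vertical axis, from 0, with its own scale in each panel) of the 9 genes in the 4 groups. Points are single libraries (circle, number 6; triangle, number 7) and bars are group means of 2 libraries. S1pr1, Cxcr4, Cxcr3 and Itga4 were lower and Ccr7, Ccr4, Ccr8 and Cd69 higher in all 4 stimulated libraries than in any unstimulated library, while the libraries of Itgae overlapped.

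Between stimulated and unstimulated cells, 6 of the 8 tested receptors differed by more than 2-fold in control offspring, and the same 6 in Cd offspring. Ccr8, Ccr4 and Cd69 rose, and Cxcr4, Cxcr3 and S1pr1 fell. These calls required an adjusted p under 0.01 from limma and a change of more than 2-fold. In control offspring 11.5% of all genes tested rose and 7.17% fell by this rule, and in Cd offspring 11.4% rose and 7.24% fell. The median log2 fold change of the 8 receptors was -0.11 in control and 0.04 in Cd offspring, against 0.07 and 0.05 over all genes tested. For all 8 the 4 stimulated libraries lay apart from the 4 unstimulated ones, as they did for 67.9% of all genes tested.

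The lymph node entry receptor Ccr7 (Entrez 12775, chr11:99144199-99155077 in mm10) had the highest group mean of the receptors in every group. It was at 269.8 and 258 RPKM in Ctr_Unstim, 381 and 406 in Ctr_Stim, 261 and 223 in Cd_Unstim, and 396 and 397 in Cd_Stim. The 4 stimulated libraries were above the 4 unstimulated ones. The log2 fold change was 0.57 (SE 0.08, adjusted p = 0.000401, limma) in control and 0.72 (adjusted p = 0.000124) in Cd offspring, so that the difference passed the p threshold and not the 2-fold one.

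S1pr1 (Entrez 13609, chr3:115710433-115715055), the receptor for exit from lymphoid tissue, was at 236 and 232 RPKM in Ctr_Unstim and 82.9 and 86.2 in Ctr_Stim. In Cd offspring it was at 217 and 228 RPKM before and 97.7 and 94.1 after stimulation. The fall was 2.77-fold in control offspring (log2 fold change -1.47, SE 0.05, adjusted p = 5.2e-07, limma) and 2.32-fold in Cd offspring (-1.21, adjusted p = 1.13e-06). S1pr1 remained among the 3 most abundant of the 9 receptor genes in all 8 libraries. Klf2, a transcription factor known to drive S1pr1, fell from 392 ± 19.7 to 119 ± 15.7 RPKM (SD, n = 2) in control offspring, or -1.72 as a log2 fold change (adjusted p = 3.14e-05, limma), and by -1.20 in Cd offspring on the same scale. S1pr4, a second sphingosine 1-phosphate receptor of lymphocytes, was at 67.1 ± 2.80 RPKM in Ctr_Unstim and 31.5 ± 4.44 in Ctr_Stim (SD, n = 2).

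Cd69 (Entrez 12515, chr6:129267324-129275375), the antigen that retains activated cells, was already at 156 and 136 RPKM in Ctr_Unstim and at 116 and 106 in Cd_Unstim. After stimulation it was at 326 and 322 RPKM in Ctr_Stim and at 308 and 306 in Cd_Stim. All 4 stimulated libraries were above the unstimulated ones. The rise was 2.23-fold in control offspring (log2 fold change 1.16, SE 0.07, adjusted p = 7.66e-06, limma) and 2.77-fold in Cd offspring (1.47, adjusted p = 2.71e-06). Cd69 is itself an early activation gene, and the unstimulated cells carried other early transcripts at a high level. The summed level of 14 immediate early and handling genes was 2810 to 3749.6 RPKM in the unstimulated and 585 to 672 RPKM in the stimulated libraries, and 11 of the 14 fell with stimulation in control offspring. Fos fell by 5.77 and Jun fell by 5.82 on the log2 scale. Of the genes not called lower, named after their values were seen, Atf3 was called higher with a log2 fold change of 1.65. Egr1 with 0.54 and Ier2 with -0.95 were not called. The part of the immediate early and handling transcripts in the unstimulated level of Cd69 was not tested.

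The ratio of Cd69 to S1pr1 RPKM, a retention gene over an exit gene, was 0.465 to 0.659 in the 4 unstimulated and 3.15 to 3.93 in the 4 stimulated libraries. The Ccr7 to Cxcr4 ratio went from 1.56 to 3.54 before to 27.2 to 32.0 after stimulation. For Ccr8 over Cxcr3 the ranges were 0.120 to 0.159 and 16.4 to 35.9. In each of the 3 ratios the stimulated and unstimulated libraries did not overlap. This follows from the single genes, since the first gene was higher and the second lower in all 4 stimulated libraries.

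**Figure D2:**
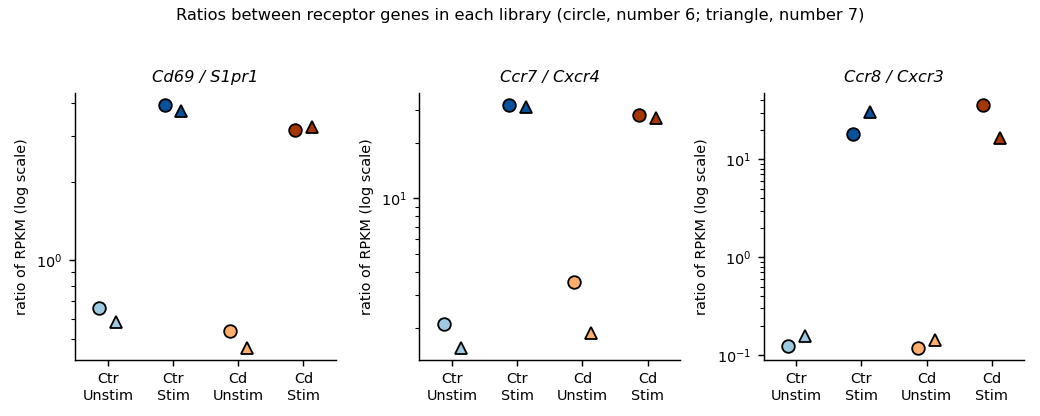
Ratios of RPKM between 3 pairs of receptor genes (vertical axis, log scale) in each of the 8 libraries, by group (circle, number 6; triangle, number 7). Cd69 over S1pr1 was 0.465 to 0.659 in unstimulated and 3.15 to 3.93 in stimulated libraries, and the other ratios were likewise separate. The separation follows from that of the single genes.

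Cxcr4 (Entrez 12767, chr1:128588199-128592299), the receptor for CXCL12, had the largest fall of the receptors in both exposures. It was at 129 and 165 RPKM in Ctr_Unstim and 11.9 and 13.1 in Ctr_Stim, and at 73.6 and 119 in Cd_Unstim and 14.0 and 14.6 in Cd_Stim. The unstimulated libraries differed among themselves more than the stimulated ones, with a lowest value of 73.6 and a highest of 165 RPKM. The fall was 11.6-fold in control offspring (log2 fold change -3.54, SE 0.21, adjusted p = 5.24e-06, limma) and 6.50-fold in Cd offspring (-2.70, adjusted p = 2.13e-05). Its promoter window, printed above, held none of the motifs searched.

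Cxcr3 (Entrez 12766, chrX:101731535-101734147), the receptor for interferon-induced chemokines, was a low gene with 73 to 403 reads a library. Its levels were 13.9 and 11.4 RPKM in Ctr_Unstim, 3.56 and 2.40 in Ctr_Stim, 10.4 and 10.5 in Cd_Unstim, and 2.06 and 4.20 in Cd_Stim. The stimulated libraries were all below the unstimulated ones, but the values within Cd_Stim differed widely. Cxcr3 fell 4.20-fold in control (log2 fold change -2.07, SE 0.31, adjusted p = 0.000727, limma) and 3.46-fold in Cd offspring (-1.79, adjusted p = 0.0016). Of its ligands, Cxcl9 and Cxcl11 were listed at 0 RPKM in all group means and Cxcl10 did not pass the test in either exposure.

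Ccr8 (Entrez 12776, chr9:120092133-120094906) had the largest change of the receptors. It was at 1.73 and 1.80 RPKM in Ctr_Unstim and 64.9 and 73.6 in Ctr_Stim, and at 1.25 and 1.52 in Cd_Unstim and 74.1 and 69.0 in Cd_Stim. The unstimulated values rest on 28 to 36 reads a library and the stimulated ones on 1166 to 2032. Ccr8 rose 37.0-fold in control (log2 fold change 5.21, SE 0.11, adjusted p = 1.76e-07, limma) and 48.5-fold in Cd offspring (5.60, adjusted p = 1.27e-07). It stood in place 7 or 8 of the 9 receptors by RPKM in unstimulated libraries and in place 4 in all 4 stimulated ones. Ccl1, the ligand of CCR8, was at 0.110 and 0 RPKM in Ctr_Unstim and at 1.53 and 3.56 in Ctr_Stim, and it was called in both exposures.

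Ccr4 (Entrez 12773, chr9:114490316-114505476), the receptor for CCL17 and CCL22, was at 1.68 and 1.41 RPKM in Ctr_Unstim and 7.66 and 5.37 in Ctr_Stim. Cd offspring had 1.55 and 1.31 RPKM before and 5.40 and 5.15 after stimulation. The rise was 3.98-fold in control (log2 fold change 1.99, SE 0.19, adjusted p = 5.69e-05, limma) and 3.52-fold in Cd offspring (1.82, adjusted p = 9.51e-05). Both low receptors that rose, Ccr4 and Ccr8, were below 2 RPKM in all 4 unstimulated libraries. Ccl22 was listed at 0 in the group means, and Ccl17 did not pass the test.

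Itga4 (Entrez 16401, chr2:79255426-79333114), the alpha 4 chain, was at 94.4 and 92.1 RPKM in Ctr_Unstim, 55.5 and 51.5 in Ctr_Stim, 80.4 and 91.2 in Cd_Unstim, and 56.6 and 53.3 in Cd_Stim. All stimulated libraries were below the unstimulated ones. The log2 fold change was -0.80 (SE 0.07, adjusted p = 4.45e-05, limma) in control and -0.64 (adjusted p = 0.00015) in Cd offspring, below 2-fold in both. The gene overlaps Cerkl in the annotation, and reads of the overlap could have been counted for either where strand was not used, which the sources used here do not give. Its partners differed from each other: Itgb7 fell from 266 ± 7.25 to 71.8 ± 3.95 RPKM (SD, n = 2) in control offspring, whereas Itgb1 was at 37.9 ± 3.90 and 42.9 ± 4.12 RPKM and did not pass the test. Itgb7 had log2 fold changes of -1.89 and -1.79 in control and Cd offspring and was called in both.

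Itgae (Entrez 16407, chr11:73090505-73147449), the alpha E chain, was at 0.280 and 0.255 RPKM in Ctr_Unstim, 0.493 and 0.472 in Ctr_Stim, 0.473 and 0.245 in Cd_Unstim, and 0.537 and 0.463 in Cd_Stim. These values rest on 19 to 54 reads a library, and the stimulated and unstimulated libraries overlap. Without the filter on low values, its log2 fold change after stimulation was 0.67 (adjusted p = 0.104, limma) in control and 0.43 (adjusted p = 0.272) in Cd offspring. Haspin lies inside its span, so that a part of so few reads could belong to that gene.

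**Figure D3:**
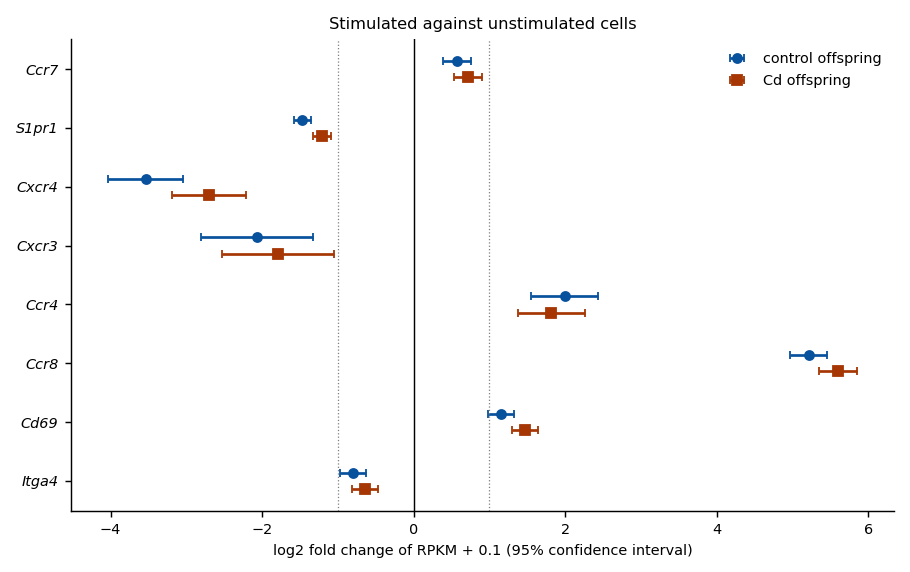
Log2 fold change of RPKM + 0.1 after stimulation (horizontal axis) of the 8 tested receptor genes in control (circles) and Cd offspring (squares), with 95% confidence intervals from limma. Dotted lines mark 2-fold. Ccr8, Ccr4 and Cd69 lay above and S1pr1, Cxcr4 and Cxcr3 below 2-fold in both exposures, while Ccr7 and Itga4 lay between the lines.

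The order of the receptors by RPKM was the same in the 4 stimulated libraries: Ccr7, Cd69, S1pr1, Ccr8, Itga4, Cxcr4, Ccr4, Cxcr3 and Itgae, with no overlap between neighbours within a group. In Ctr_Unstim the order of group means was Ccr7, S1pr1, Cxcr4, Cd69, Itga4, Cxcr3, Ccr8, Ccr4 and Itgae, and only Cxcr4 and Cd69 overlapped. In Cd_Unstim the libraries overlapped between Ccr7 and S1pr1, Cd69 and Cxcr4, Cxcr4 and Itga4, and Ccr4 and Ccr8. The summed level of the 9 genes was 899 to 903 RPKM in Ctr_Unstim, 934 to 960.3 in Ctr_Stim, 761 to 781 in Cd_Unstim and 943 to 954 in Cd_Stim.

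None of the 8 tested receptors passed an adjusted p under 0.05 between Cd and control offspring in unstimulated cells, where 0.896% of all genes tested passed (113 genes, limma). Unadjusted p-values were under 0.05 for 3 receptors, Cd69, Ccr8 and Cxcr4, and for 13.9% of all genes tested. All 8 receptors had a lower estimate in Cd than in control offspring, whereas 51.6% of all genes had an estimate above 0. The median log2 fold change of the 8 was -0.20, against 0.01 over all genes tested. Estimates were also below 0 for 7 of 8 T cell markers (median -0.11) and 11 of 14 immediate early and handling genes (-0.14). Of the lists described below, 7 of 9 chemokine ligands (-0.20) and 8 of 11 transcription factors of homing genes (-0.11) were below 0. The shares were 12 of 21 signalling genes, 6 of 11 integrin activation genes, 4 of 9 integrin chains and 3 of 7 sphingosine 1-phosphate genes. They were 2 of 7 for other chemokine receptors and 2 of 6 for selectin and ligand genes. Both Cd_Unstim libraries lay below both Ctr_Unstim libraries for 6 of the 8 receptors (S1pr1, Cxcr4, Cxcr3, Ccr8, Cd69 and Itga4), as they did for 20.0% of all genes tested. An exact permutation test of 2 against 2 libraries cannot give a two-sided p below 0.333.

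Cd69 came closest to the threshold. Its levels of 116 and 106 RPKM in Cd_Unstim lay below the 156 and 136 RPKM of Ctr_Unstim, a 1.31-fold lower level (log2 fold change -0.39, 95% confidence interval -0.56 to -0.22, adjusted p = 0.079, limma). With limma voom on whole reads recovered from the table the log2 fold change was again -0.39 and passed (adjusted p = 0.00923). Its adjusted p in limma ranged from 0.00923 to 0.271 over the alternatives other than those that left out 1 library in turn. Cxcr4 was 1.56-fold lower in Cd_Unstim, a log2 fold change of -0.64 (interval -1.13 to -0.15, adjusted p = 0.256). The Cd_Unstim library numbered 6 had the lowest Cxcr4 level, 73.6 RPKM, and without library 7 of that group, which leaves 1 library assumed to vary like the other groups, the log2 fold change was -0.99 (adjusted p = 0.0418, limma). Without library 6 it was -0.30. The summed level of the 14 immediate early and handling genes was 3712 RPKM in that library 6 and 2810 in library 7, against 3749.6 and 3559 in Ctr_Unstim, and its part in the Cxcr4 and Cd69 values was not tested.

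Ccr8 had a log2 fold change of -0.34 between Cd_Unstim and Ctr_Unstim (interval -0.59 to -0.09, adjusted p = 0.241, limma), on 28 to 36 reads a library. Its spread is shared with stimulated libraries of 1166 to 2032 reads, so the interval and the unadjusted p may be too small for so few reads. The remaining estimates were -0.27 for Cxcr3, -0.13 for Ccr7, -0.12 for Itga4, -0.10 for Ccr4 and -0.08 for S1pr1. The intervals of these 5 included 0. Those of Ccr7, Itga4 and S1pr1 reached no further than -0.31 below and 0.05 above it, whereas that of Cxcr3 ran from -1.0 to 0.47.

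In stimulated cells no receptor passed the test between Cd and control offspring, and the share of all genes called was 0% (0 of 12605 by limma at an adjusted p under 0.05). At an unadjusted p under 0.05 there were 414 genes, and limma voom called 0 genes, the fit without a trend 2 and the fit without a filter 9. S1pr1 was the 1 receptor with an unadjusted p under 0.05 (adjusted p = 1, limma). It was at 97.7 and 94.1 RPKM in Cd_Stim and at 82.9 and 86.2 in Ctr_Stim, a log2 fold change of 0.18 (interval 0.07 to 0.30). Cd_Stim and Ctr_Stim libraries did not overlap for 3 receptors, S1pr1 and Cxcr4 with higher and Cd69 with lower levels in Cd_Stim, and for 36.7% of all genes tested. The other estimates ran from -0.28 for Ccr4 to 0.20 for Cxcr4, and their intervals included 0.

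**Figure D4:**
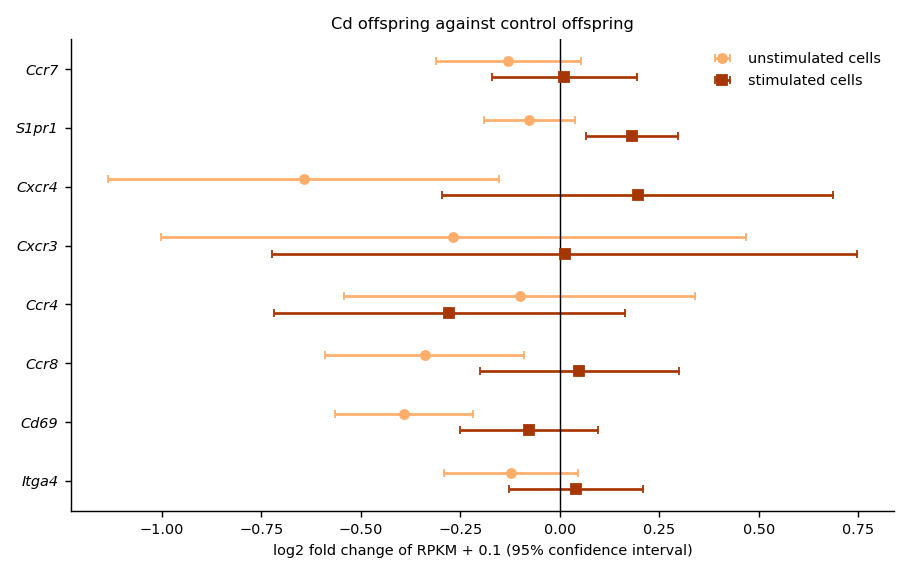
Log2 fold change of RPKM + 0.1 between Cd and control offspring (horizontal axis) of the 8 tested receptor genes in unstimulated (circles) and stimulated cells (squares), with 95% confidence intervals from limma. All circles lie below 0, those of Cxcr4, Ccr8 and Cd69 with intervals that exclude it, and no gene passed an adjusted p under 0.05. The intervals use a spread shared over the 4 groups, so that of Ccr8, with 28 to 36 reads in an unstimulated library, may be too narrow.

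Whether the response to stimulation differed between Cd and control offspring was tested by the interaction contrast, which called 0.357% of all genes (45 genes, limma) and none of the receptors. Unadjusted p-values were under 0.05 for 4 of the receptors, S1pr1, Cd69, Cxcr4 and Ccr8, and for 10.6% of all genes tested. The fall of S1pr1 was smaller in Cd than in control offspring by 0.26 on the log2 scale (interval 0.10 to 0.42, adjusted p = 0.263, limma), and that of Cxcr4 by 0.84 (interval 0.14 to 1.53, adjusted p = 0.39). The rise of Cd69 was larger by 0.31 (interval 0.07 to 0.56, adjusted p = 0.372) and that of Ccr8 by 0.39 (adjusted p = 0.433). The interaction uses all 8 libraries, among them the Cd_Unstim and Ctr_Unstim libraries compared above, where Ccr8 had 28 to 36 reads a library.

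The other genes of the homing pathway were taken from lists. The list of other chemokine receptors also holds related receptors such as Gpr183, which binds oxysterols and was among those tested. Of its 19 genes 7 were tested, and 1 rose and 4 fell in control offspring while 0 rose and 3 fell in Cd offspring. Those called in both were Ccr2, with log2 fold changes of -1.97 and -2.26, the gut receptor Ccr9 with -1.88 and -2.08, and Cxcr6 with -1.003 and -1.42. Ccr2 and Ccr9 were low genes, with group means below 5 RPKM, whereas Cxcr6 went from 18.5 ± 0.0010 to 9.24 ± 1.38 RPKM (SD, n = 2) in control offspring. The median of the 7 was -1.003 in control offspring, against 0.07 over all genes. Of 9 tested chemokine ligands 3 rose and 1 fell in both exposures: Ccl4 went from 0.321 ± 0.335 to 12.6 ± 1.19 RPKM (SD, n = 2) in control offspring, Ccl1 had the levels given above, and Ccl5 fell by 2.87 on the log2 scale.

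Among 7 tested genes of sphingosine 1-phosphate receptors and metabolism, 1 fell in control offspring and 1 rose in Cd offspring. The first was S1pr4, with log2 fold changes of -1.10 in control and -0.77 in Cd offspring, and the difference between these did not pass the test (0.33 on the log2 scale, adjusted p = 0.527, limma). The second was S1pr2, named after its values were seen, with 0.86 and 1.06. Of 9 tested integrin chains 1 rose and 3 fell in both exposures: Itgb3 with -2.73 in control offspring, Itgam with -2.27 and Itgb7, while Itga5, likewise named after its values were seen, rose by 1.31. Itgam is also a marker of myeloid cells, whose other markers were below 1 RPKM. The part of myeloid or NK cells in its level was not tested.

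Of 11 tested genes that control integrin activation, among them Sipa1, which turns Rap1 off, 0 rose and 3 fell in both exposures, with a median of -0.68 in control offspring. Rasgrp2, the exchange factor that activates Rap1, fell from 148 ± 3.83 to 22.6 ± 1.77 RPKM (SD, n = 2) in control offspring. Its log2 fold change was -2.70, and the adaptors Skap1 and Fyb had -1.36 and -1.25. Of 6 tested selectin and ligand genes 2 fell in control and 1 in Cd offspring, St3gal6 in both, with -1.47 and -1.42.

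Downstream of the chemokine receptors, 21 signalling genes were tested, and 1 rose and 4 fell in control offspring while 1 rose and 3 fell in Cd offspring. The 3 largest changes called in both were in the RGS family, which shortens G protein signals. Rgs16 went from 1.38 ± 0.575 to 25.3 ± 0.775 RPKM (SD, n = 2) in control offspring. Its log2 fold change was 4.16, whereas Rgs2 had -3.63 and Rgs14 had -1.95. Of 11 transcription factors of homing genes 1 rose and 3 fell in both exposures. Foxo1, which is known to drive Klf2 and Ccr7, fell from 136 ± 0.212 to 43.6 ± 0.695 RPKM (SD, n = 2) in control offspring, or -1.64 as a log2 fold change (adjusted p = 2.49e-07, limma). Hif1a rose by 1.39 and Klf3, named after its values were seen, fell by 1.37 on the log2 scale. The other genes called in these 8 lists, named after their values were seen, were Ccr6, Cxcr1, Ccl3, Selplg, Arhgef1 and Pik3cg. Ccr6, Cxcr1, Selplg and Arhgef1 were called in control offspring alone, and no gene of these lists passed the interaction test or a comparison of Cd and control offspring.

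**Figure D5:**
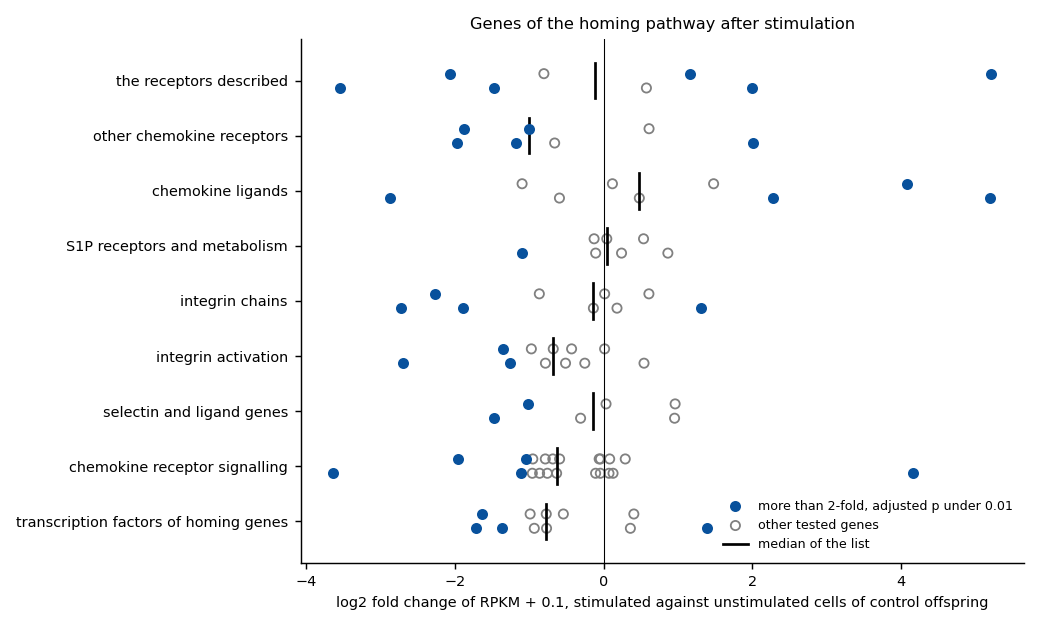
Log2 fold change of RPKM + 0.1 after stimulation in control offspring (horizontal axis) for the tested genes of 9 lists, 1 point a gene. Filled points passed an adjusted p under 0.01 and 2-fold, open points did not, and the bar is the median of a list, which is -0.11 for the receptors described and -1.003 for the other chemokine receptors.

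Among 8617 genes with a mean of at least 5 RPKM, those whose values over the 8 libraries lay nearest to each receptor were found by the root mean square difference of the centred log2 values. For S1pr1 they were Cd1d1 (0.05) and Acss2 (0.05), and for Ccr7 Lonp1 (0.03) and Nudcd3 (0.04). Nearest to Itga4 were Zbtb38 (0.03) and Crot (0.05), and to Cd69 Gm10052 (0.07) and Mrpl2 (0.08). The distances were wider for Cxcr4, with Tsc22d3 (0.17) and Vim (0.28), and for Cxcr3, with Isg20 (0.19) and Oas3 (0.22). Ccr4 lay nearest to Mcm5 (0.13) and Mcm6 (0.14), and Ccr8 to Bcat1 (0.14) and the TNF receptor family gene Tnfrsf4 (0.20). All of these genes share the split into 4 stimulated and 4 unstimulated libraries.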

How the data were processed

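Splenic CD4+ T cells of 8 libraries were measured by RNA sequencing. Per the labels and the methods of the study, the authors used Subread for alignment to mm10 and featureCounts for counting on RefSeq transcripts. Versions, strand setting and the treatment of reads with several alignments are not given in the sources used here. The authors deposited one table of log2 values, read from the values themselves as log2(RPKM + 1) + 0.0001, which were turned back into RPKM. Identifiers matched the RefSeq table for 25275 of 27179 genes, and 847 rows had no symbol. Because low genes step in whole reads, library totals and reads per gene were recovered. This was tested on data simulated from the recovered lengths and reads, where 99.2% of genes came out exactly. Such a test cannot show an error in those lengths. The summed reads equalled the total from the steps in 0 of 8 libraries, with 17975181 against 17985243 in Ctr_Unstim replicate 6. The steps gave Ccr8 a common factor, so its reads were multiplied by 2 to fit the annotated transcript.

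Genes with a mean of at least 0.5 RPKM over the 8 libraries were tested with limma 3.58.1 (R 4.3.3) on log2(RPKM + 0.1), in one model of 4 group means with a trended prior and Benjamini-Hochberg adjustment over 12605 genes. Fold changes are on that scale, so low genes appear less changed than they are. Calls for stimulation required a change over 2-fold with an adjusted p under 0.01, and Cd comparisons and the interaction at an adjusted p under 0.05. Groups came from the labels. Named genes are the 9 receptors, up to 3 genes of each list with the largest change called in both exposures, any list gene called in a Cd comparison, Itgb1, Itgb7, Klf2 and S1pr4, and the 2 genes nearest to each receptor. The receptors and lists were chosen with earlier results of these data known. A few genes of the lists are not reported here and were left out of the list counts. Promoter windows came from the RefSeq table of GRCm38.p6. The pseudocount was varied (0.5 and 1 RPKM), as was the filter (none, or a mean of at least 1 RPKM), and other fits used only the libraries compared, median-of-ratios scaling, quantile normalization, no trend, replicate blocks, limma voom on the recovered reads, and each library left out in turn. Python 3.11.15 with pandas 2.3.3, numpy 2.4.6 and matplotlib 3.10.9 made tables and plots. Intervals cover the spread between libraries only.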

Additional observations from a re-analysis of the deposited data

How the results depend on the processing

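The 6 receptors called after stimulation numbered 6 in both exposures under all alternatives run, and no receptor was called in stimulated cells or in the interaction under any. In unstimulated cells 1 receptor was called between Cd and control offspring with limma voom (Cd69) and 1 without Cd_Unstim replicate 7 (Cxcr4), against 0 otherwise. Of the log2 fold changes of single receptors under alternatives, 594 kept direction and side of the threshold, 2 passed it and 12 changed sign, and the cause was not tested. Those 12 were values that had not passed the test. Ccr7 in stimulated cells was -0.0154 after quantile normalization. When 1 library was left out, ranges between Cd and control offspring were -0.0341 to 0.0574 for Ccr7, -0.48 to 0.51 for Cxcr3, -0.041 to 0.14 for Ccr8 and -0.0136 to 0.0941 for Itga4 in stimulated cells, and -0.22 to 0.0167 for Ccr4 in unstimulated cells. For the interaction they were -0.22 to 0.77 for Cxcr3 and -0.43 to 0.0762 for Ccr4. Over the whole table, genes called for Cd in unstimulated cells, 113 as reported, numbered 65 without a filter, 52 with only the 4 libraries compared, 14 without a trend, 211 with voom and 19 to 105 with 1 library left out, namely 19 without Ctr_Unstim replicate 6 and 67 without Ctr_Unstim replicate 7. In stimulated cells the 0 genes became 9 without a filter, 2 without a trend and 0 to 3 with 1 library left out (3 without Ctr_Stim replicate 7). The 45 genes of the interaction became 28 without a filter, 4 without a trend, 112 with voom and 2 to 63 with 1 library left out, with 27 without Ctr_Unstim replicate 6, 3 and 28 without Ctr_Stim replicates 6 and 7, and 2 without Cd_Stim replicate 7. With a replicate block on exposure and number the interaction called 25 genes, and with a replicate block on the number alone 76 genes were called for Cd in unstimulated cells and 36 for the interaction. The differences between numbers 7 and 6 correlated at 0.064 between Ctr_Unstim and Ctr_Stim and at 0.0085 between Cd_Unstim and Cd_Stim. Over all pairs of groups the correlations were -0.11 to 0.06. With 2 libraries a group this cannot show whether same-numbered libraries are pairs. The main fit did not use the numbers as pairs, and no replicate block changed the call of a receptor. Each group had 2 libraries, and counts were low for Itgae, Cxcr3, Ccr4 and the unstimulated level of Ccr8, with 19 to 403 reads a library.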
